A study of Rattus norvegicus with 16 samples.

Results

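The genes described here are 9 markers of the glutamatergic neurons of the cortex and the basolateral amygdala: Slc17a7, Neurod2, Neurod6, Tbr1, Emx1, Rspo2, Slc30a3, Mef2c and Nrn1. They were taken by symbol from a table of read counts for 33294 genes in 16 rat brain libraries, and all 9 were found. Of the 9, 6 passed the filter on low counts and entered the tests, while Neurod2, Emx1 and Rspo2 did not.

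Excitatory neurons of the cortex, hippocampus and basolateral amygdala come largely from the pallium, the dorsal part of the embryonic forebrain, whereas most neurons of the central amygdala and striatum come from the subpallium and use GABA. In pallial progenitors and young neurons a set of transcription factors, among them Emx1, Neurod2, Neurod6 and Tbr1, sets the glutamatergic identity. The mature cells load glutamate into synaptic vesicles with VGLUT1, the product of Slc17a7. The basolateral nuclei, which these genes mark, lie directly beside the central amygdala.

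Perinatally, the rats were exposed either to the opioid fentanyl or to saline. As adults, 1 day after their last session of a procedure that the labels abbreviate as IVSA and do not spell out, they gave the tissue labelled as central amygdala. There were 6 fentanyl males, 2 fentanyl females, 6 saline males and 2 saline females, each library being 1 offspring, and the design text gives 1 collection time for all. The sources used here give no strain, exact age, dose or litter, so the p-values measure the spread between these animals, some of which may be littermates. Library names number the fentanyl males 1 to 6 and the saline males 1, 2 and 9 to 12. Fentanyl females are numbered 1 and 2, and saline females 10 and 11. Nothing says what the 2 ranges of numbers stand for. In females, exposure and range of numbers therefore cannot be told apart. Over both sexes, only saline males 1 and 2 share the range of the fentanyl libraries. Saline male replicate 3, which carries the number 9, stood apart for these genes, and the results that rest on it are given with and without it.

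Upstream sequences were available for 6 of the 9 genes (RefSeq, build GRCr8, 250 bases before the annotated start). They were searched on both strands for CAGATG, a form of the E-box that NeuroD factors bind, and for AGGTGTG, the core of the T-box element that Tbr1 and its relatives bind. The sequences of the pair of NeuroD genes are shown because they were the only ones of the 6 with a match. Both genes have their highest level in saline male replicate 3, as do Slc17a7, Tbr1, Emx1 and Slc30a3, which had no match. Capitals mark the matches, and CACACCT is AGGTGTG on the other strand.
Neurod6: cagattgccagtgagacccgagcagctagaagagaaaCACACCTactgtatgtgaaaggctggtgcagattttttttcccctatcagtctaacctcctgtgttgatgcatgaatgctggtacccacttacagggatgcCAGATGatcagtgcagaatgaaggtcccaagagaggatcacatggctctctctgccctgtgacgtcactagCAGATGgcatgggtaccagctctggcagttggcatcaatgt
Neurod2: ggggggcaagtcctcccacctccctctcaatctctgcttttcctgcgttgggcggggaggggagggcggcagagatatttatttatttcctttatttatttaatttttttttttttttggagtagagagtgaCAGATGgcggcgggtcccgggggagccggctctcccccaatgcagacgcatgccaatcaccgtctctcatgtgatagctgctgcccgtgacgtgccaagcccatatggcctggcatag
The Neurod6 sequence is chr4:86180156-86180405 on the minus strand, with CAGATG starting at 112 and 41 bases before the start of the gene and the T-box core at 213 bases. The Neurod2 sequence is chr10:83824278-83824527 on the minus strand, with CAGATG at 118 bases. Of 33469 rat upstream sequences of this length, 14.0% held CAGATG and 4.8% held AGGTGTG. The letters were absent from the windows of Slc17a7, Tbr1, Emx1 and Slc30a3.

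Library totals lay between 12879701 and 22426428 reads, the highest being that of saline male replicate 3. Levels are given as CPM (reads of a gene relative to the TMM-adjusted total of its library), not corrected for gene length, so they compare libraries for 1 gene and not genes with each other. All 16 central amygdala genes of a marker list that are in the table were detected in every library. Among them was Prkcd, a kinase of central amygdala neurons, at 11.2 to 33.3 CPM. In bulk tissue, fewer cells of a type and less RNA per cell cannot be told apart.

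The highest levels were gathered in 1 library. Of the 9 genes, 8 had their highest level in saline male replicate 3, and the exception was Mef2c. Of the 6 members tested, 5 were highest in that library, and of all 17856 genes tested, 1490 (8.345%) were. This library held 82.9% of all reads of Slc17a7, 72.8% of those of Slc30a3, 72.7% of Neurod2, 52.0% of Emx1, 48.0% of Neurod6, 41.4% of Rspo2, 30.7% of Tbr1 and 29.8% of Nrn1, but 7.78% of those of Mef2c. The same 8 genes were highest there when CPM were computed on total counts.

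**Figure D1:**
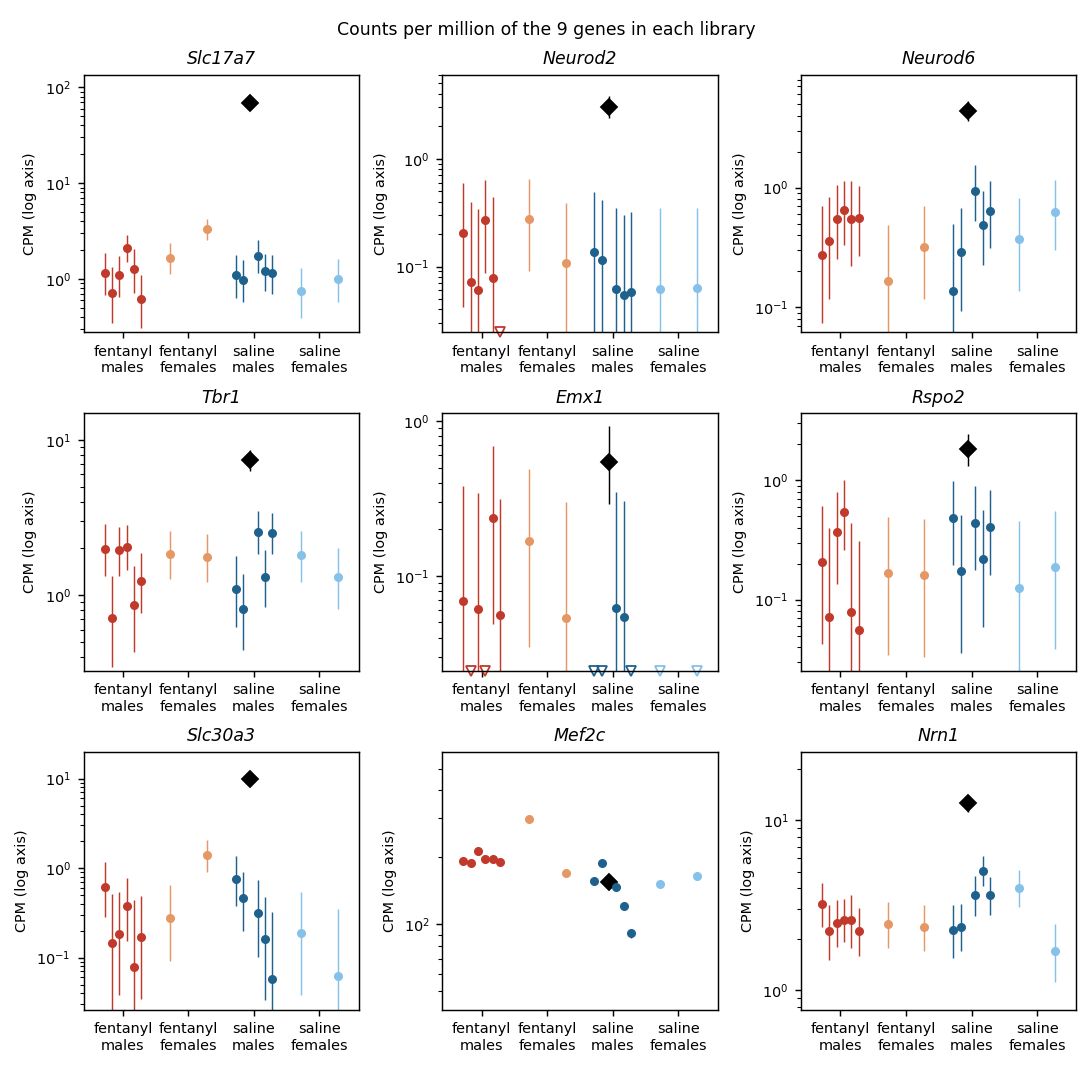
CPM of each gene (log axis) in the 16 libraries by group, with fentanyl groups on the left; bars are exact 95% Poisson intervals for counting error, and open triangles on the lower edge are libraries with 0 reads. The black diamond is saline male replicate 3, which is the highest point in 8 of the 9 panels, the exception being Mef2c.

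Slc17a7 encodes VGLUT1, the vesicular glutamate transporter of most cortical and basolateral neurons. Its level in the 8 fentanyl libraries was 0.616 CPM at the lowest, 1.21 at the median and 3.33 at the highest, against 0.749, 1.12 and 68.1 CPM in the 8 saline libraries. The next highest saline library had 1.75 CPM, so apart from replicate 3 the ranges overlapped. The 68.1 CPM of saline male replicate 3 rest on 1623 reads, whereas the other libraries had between 10 and 62. Its level was 20.5 times that of the next library, fentanyl female replicate 2 (95% interval 15.9 to 26.8, exact, counting error only), and 59.2 times the median of the other 15. Among those 15, the 2 fentanyl females had 1.67 and 3.33 CPM and the 2 saline females 0.749 and 1.00 CPM, with no overlap. Between these pairs 6 of the 9 members did not overlap, including the untested Neurod2 and Emx1, and 48.8% of all genes tested did not. The fentanyl males (0.616 to 2.11 CPM) and the other saline males (0.985 to 1.75 CPM) overlapped.

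Slc30a3 encodes ZnT3, the transporter that fills glutamatergic vesicles with zinc. Fentanyl libraries had 0.0785 CPM at the lowest, 0.231 at the median and 1.39 at the highest, and saline libraries had 0.0575, 0.250 and 9.86 CPM. Saline male replicate 3 (235 reads) was 7.07 times the next library (interval 4.70 to 11.1), which was again fentanyl female replicate 2 (26 reads). The other fentanyl libraries held 1 to 9 reads each and the other saline libraries 1 to 11.

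The transcription factors of pallial identity followed the same library at low levels. Neurod6, a NeuroD factor of maturing and adult pallial neurons, had 0.167, 0.454 and 0.649 CPM (lowest, median, highest) in fentanyl libraries and 0.137, 0.559 and 4.40 CPM in saline libraries. Saline male replicate 3 had 105 of its 219 reads and stood 4.70 times above the next library (interval 2.73 to 8.70), saline male replicate 4. Neurod2, its relative in the same family, had 0, 0.0929 and 0.279 CPM in fentanyl libraries and 0.0544, 0.0626 and 3.02 CPM in saline libraries. Saline male replicate 3 held 72 reads of Neurod2 and the other 15 libraries 27 in all, and the spread of those 27 over libraries was that of counting (chi-square per degree of freedom 1.06).

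Tbr1, a T-box factor of early-born cortical and amygdalar projection neurons, had at least 10 reads in every library. Its level was 0.719, 1.80 and 2.05 CPM in fentanyl libraries and 0.811, 1.57 and 7.38 CPM in saline libraries. Saline male replicate 3 was 2.88 times the next library (interval 2.04 to 4.16). Without it, the saline libraries ran to 2.56 CPM, and the ranges of the 2 exposures overlapped.

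Emx1, a homeobox factor of cortical progenitors and their neurons, was close to the limit of detection. It had 12 reads in 15 libraries together, 0 in 7 of them, where 0 reads allow up to 0.162 to 0.216 CPM, and 13 reads (0.545 CPM) in saline male replicate 3. The ratio to the next library, 2.32, had an interval of 0.636 to 12.7, so these 2 libraries could not be told apart at this depth. Fentanyl libraries ran from 0 to 0.235 CPM, and saline libraries other than replicate 3 from 0 to 0.0624 CPM.

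The last pair of low-level members encodes proteins outside the cell or on its surface. Rspo2, an R-spondin that amplifies Wnt signalling and marks a class of basolateral projection neurons in mice, had 0.0560, 0.164 and 0.541 CPM in fentanyl libraries and 0.125, 0.310 and 1.80 CPM in saline libraries. Its 43 reads in saline male replicate 3 were 3.34 times the next library (interval 1.65 to 7.45). Nrn1, the activity-induced, membrane-anchored neuritin, had 2.23, 2.48 and 3.23 CPM in fentanyl libraries and 1.69, 3.62 and 12.6 CPM in saline libraries. For Nrn1 the next library, saline male replicate 5 with 5.06 CPM, was also a saline male, and the ratio was 2.49 (interval 1.96 to 3.17). Fentanyl males had 2.23 to 3.23 CPM and saline males 1 and 2 had 2.27 and 2.38 CPM, all below the 3.62 to 12.6 CPM of saline males 9 to 12. Between the 2 sets of saline males, 44.8% of all genes tested did not overlap. For fentanyl males against saline males 9 to 12 that share was not computed.

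Mef2c, a MADS-box factor that regulates activity-dependent transcription and synapse number, did not share the pattern. It was abundant in every library, with 170 CPM at the lowest, 195 at the median and 296 at the highest in fentanyl libraries and 91.0, 153 and 189 CPM in saline libraries. Saline male replicate 3 had 155 CPM and ranked 12 of the 16. Means were 205 ± 38.6 CPM in fentanyl and 147 ± 29.5 CPM in saline (SD, n = 8 each). The ranges overlapped between 170 and 189 CPM, with fentanyl female replicate 2 the lowest of its exposure and saline male replicate 2 the highest of its own.

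Exposure was first compared over both sexes with edgeR's quasi-likelihood test, sex being a term and Benjamini-Hochberg adjustment covering all 17856 genes. No member passed an adjusted p of 0.05, where 14 of all genes (0.0784%) did, and no member kept the exposures apart without overlap, where 18 of all genes (0.101%) did. The log2 fold change, fentanyl over saline, was -2.42 ± 1.12 (SE) for Slc17a7 (adjusted p = 0.685), -1.74 ± 1.04 for Slc30a3 (adjusted p = 0.759), -1.22 ± 0.56 for Neurod6 (adjusted p = 0.685), -0.59 ± 0.41 for Tbr1 (adjusted p = 0.802) and -0.78 ± 0.32 for Nrn1 (adjusted p = 0.636). Most of the size of these values rested on saline male replicate 3. With the other 15 libraries the values were 0.36 ± 0.31 for Slc17a7, 0.47 ± 0.62 for Slc30a3, -0.25 ± 0.35 for Neurod6, -0.06 ± 0.29 for Tbr1 and -0.36 ± 0.20 for Nrn1, and again none passed. The sign turned for Slc17a7 and Slc30a3.

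Over the 6 members tested, the median log2 fold change was -1.0 with all libraries, with 1 value above and 5 below 0, and 0.15 with 3 above and 3 below 0 when saline male replicate 3 was left out. The median of all genes tested was -0.01 with either set. The members outside the filter were fitted with no filter on low counts. With 16 libraries they had -1.63 ± 0.98 (Neurod2), -1.12 ± 0.54 (Rspo2) and -0.23 ± 0.89 (Emx1), and with 15 libraries 0.75 ± 0.57, -0.41 ± 0.46 and 1.77 ± 0.86. None of these passed, and for Emx1 the last value compares 10 reads with 2.

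**Figure D2:**
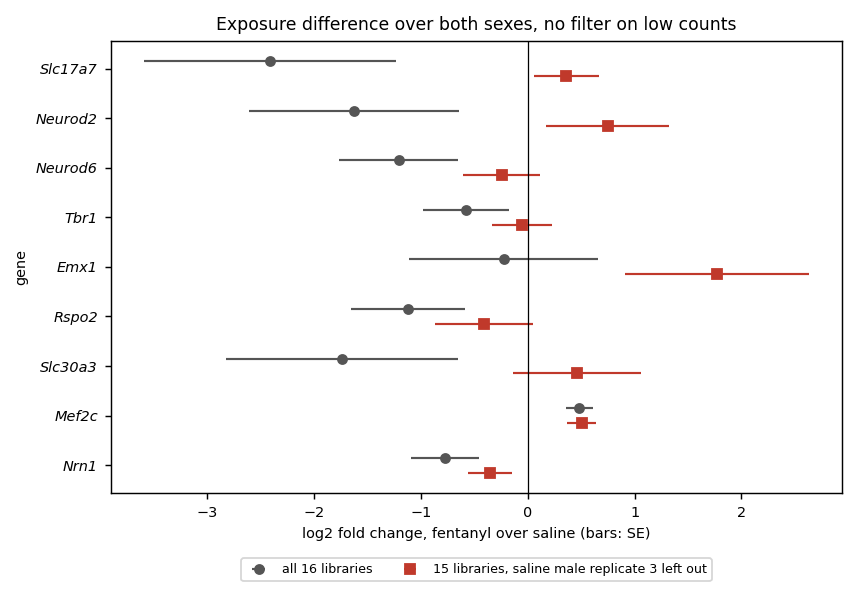
Log2 fold change of fentanyl over saline with both sexes together, fitted with no filter on low counts; bars are standard errors. Grey circles use all 16 libraries and red squares the 15 without saline male replicate 3, Slc17a7 being at -2.41 with 16 and at 0.36 with 15 libraries, and Mef2c at 0.48 and 0.50.

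Mef2c had a log2 fold change of 0.48 ± 0.13 (unadjusted p = 0.00196, adjusted p = 0.334 by edgeR), and 0.50 ± 0.14 without saline male replicate 3 (adjusted p = 0.371). At an unadjusted p of 0.05, 7.27% of all genes passed this comparison. limma voom with quality weights placed Mef2c past the threshold, at 0.63 ± 0.10 (adjusted p = 0.00372), and called 1031 genes in all (5.77%). DESeq2 gave 0.48 ± 0.14 (adjusted p = 0.0859). Without saline males 1 and 2, edgeR placed Mef2c past the threshold at 0.60 ± 0.13 (adjusted p = 0.0164), where 1226 genes (6.9%) were called. In that setting exposure and range of library numbers cannot be told apart. Without saline males 9 to 12 the value was 0.33 ± 0.14 (adjusted p = 0.999 by edgeR).

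The 3 lowest levels of Mef2c were in saline males with numbers from 9 to 12. Fentanyl males had 196 ± 9.02 CPM (SD, n = 6), saline males 1 and 2 had 157 and 189 CPM, and saline males 9 to 12 had 155, 147, 121 and 91.0 CPM. Against saline males 1 and 2 the fentanyl males differed by 0.18 ± 0.19 (adjusted p = 0.652 by edgeR), and against saline males 9 to 12 by 0.61 ± 0.16 (adjusted p = 0.0875). DESeq2 and limma voom placed the second of these past the threshold (adjusted p = 0.0128 and 0.0124), where they called 3.09% and 4.95% of all genes. In that second comparison exposure and range of library numbers cannot be told apart. Mef2c is also expressed outside pallial neurons, and a list of 17 striatal medium spiny neuron genes had its lowest means in saline males 9 to 12: its mean log2 CPM was 8.14 to 9.31 in fentanyl libraries and 7.03 to 9.003 in saline libraries. All 17 striatal genes had a fold change above 0 over both sexes, with a median of 0.48 and none past the threshold, and no gene of the list was at 0 in any library. Its part in the Mef2c difference was not tested.

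**Figure D3:**
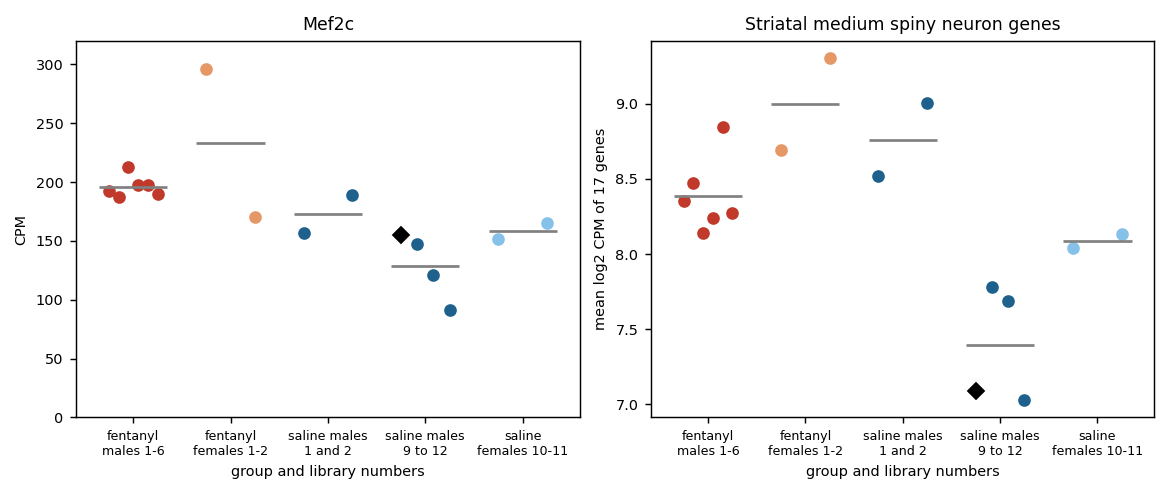
Mef2c in CPM (left) and the mean log2 CPM of 17 striatal medium spiny neuron genes (right) by group and library numbers; points are libraries, lines are group means and the black diamond is saline male replicate 3. Saline males 9 to 12 have the lowest group mean in both panels, with libraries between 91.0 and 155 CPM for Mef2c.

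Within males, no member passed the threshold, as 7 genes did (0.0392%), and none was free of overlap, as 67 genes were (0.375%). Slc17a7 had -3.42 ± 1.09 (adjusted p = 0.866), Slc30a3 -2.90 ± 1.06, Neurod6 -1.27 ± 0.64, Tbr1 -0.84 ± 0.47, Nrn1 -0.96 ± 0.37 and Mef2c 0.45 ± 0.15 (adjusted p = 0.971 to 1.00 for these 5, by edgeR). Without saline male replicate 3 the values for Slc17a7, Neurod6 and Tbr1 were -0.08 ± 0.31, -0.01 ± 0.40 and -0.16 ± 0.35, Slc30a3 had -0.35 ± 0.64 and Nrn1 -0.40 ± 0.24. Mef2c kept 0.48 ± 0.16. limma voom alone called Mef2c in males (0.51 ± 0.11, adjusted p = 0.0437), with 0.487% of all genes called.

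In females, 2 against 2, no gene passed by edgeR (0%), with 2555 genes (14.3%) at an unadjusted p under 0.05, 20 called by DESeq2 and 0 by limma voom. Slc17a7 had 1.51 ± 1.98, Slc30a3 2.68 ± 2.19, Mef2c 0.56 ± 0.27, Tbr1 0.20 ± 0.82, Nrn1 -0.24 ± 0.66 and Neurod6 -1.01 ± 1.32. In these values exposure cannot be told apart from the range of library numbers. They share the spread of the males, saline male replicate 3 included. With that library left out and no filter on low counts, Slc17a7 had 1.53 ± 0.51 and Slc30a3 2.70 ± 1.04 (adjusted p = 0.482 for both by edgeR). Fentanyl female replicate 2 had 1.39 CPM of Slc30a3, the other 3 females 0.0628 to 0.279 CPM. For Mef2c the 2 fentanyl females had 296 and 170 CPM, and the 2 saline females 151 and 166 CPM.

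The exposure difference in females minus that in males was 4.92 ± 2.29 for Slc17a7 (unadjusted p = 0.0474, adjusted p = 0.570) and 5.58 ± 2.39 for Slc30a3 (unadjusted p = 0.0334, adjusted p = 0.570). Without saline male replicate 3 it was 1.58 ± 0.59 (adjusted p = 0.638) and 3.02 ± 1.26 (adjusted p = 0.638). The female part of this difference cannot be told apart from the range of library numbers. No gene passed this comparison by edgeR (0%), 1470 genes (8.23%) had an unadjusted p under 0.05, DESeq2 called 4 and limma voom 0. Females and males, with exposure as a term, differed in 10 genes (0.056%), none of them a member, and the member values lay between -1.14 ± 0.71 for Neurod6 and 0.20 ± 0.15 for Mef2c. Without saline male replicate 3 they lay between -0.45 ± 0.41 for Neurod6 and 0.63 ± 0.65 for Slc30a3, and Slc17a7, Tbr1 and Slc30a3 turned from negative to positive.

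Saline males 1 and 2 differed from saline males 9 to 12 in 3201 genes (17.9%), more than in any exposure comparison by the same test with all libraries. By edgeR, 3 of the 6 members tested were lower in saline males 1 and 2, with log2 fold changes of -2.89 ± 0.91 for Neurod6 (adjusted p = 0.0384), -1.87 ± 0.62 for Tbr1 (adjusted p = 0.0475) and -1.43 ± 0.47 for Nrn1 (adjusted p = 0.0468). Of all 9 members 5 did not overlap between these sets, all 5 being among the 6 tested. Of all genes tested, 44.8% did not overlap. Neurod6 had 0.137 and 0.290 CPM in saline males 1 and 2, against 4.40, 0.936, 0.490 and 0.633 CPM in saline males 9 to 12. Tbr1 had 1.10 and 0.811 CPM in saline males 1 and 2, against 7.38, 2.56, 1.31 and 2.53 CPM in saline males 9 to 12. Without saline male replicate 3, Neurod6 stayed past the threshold (-1.62 ± 0.54, adjusted p = 0.0428, where 22.8% of all genes passed), and Tbr1 (-1.17 ± 0.46, adjusted p = 0.0830) and Nrn1 (-0.83 ± 0.31, adjusted p = 0.0653) did not. The 3 calls were also lost without saline male replicate 1 (adjusted p = 0.158 to 0.218) or replicate 2 (0.173 to 0.288). With no filter on low counts, Tbr1 (adjusted p = 0.0606) and Nrn1 (0.0550) were lost, and Neurod6 was lost with no filter and replicate 3 left out (0.0830). Tbr1 was lost too by limma voom (0.0684) and without replicates 4 (0.0511) or 6 (0.0634), and Nrn1 without replicate 5 (0.0588). limma voom, which called 32.1% of all genes, also called Mef2c between these sets (0.43, adjusted p = 0.0468). Slc17a7 had -4.13 ± 1.56 (adjusted p = 0.0797 by edgeR), and -0.40 ± 0.47 without that library.

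Fentanyl males set against each of these sets of saline males gave no member past the threshold by edgeR with all libraries. Against saline males 1 and 2, where 2.9% of genes were called, Slc17a7 had 0.17 ± 1.52, Neurod6 1.16 ± 0.95, Tbr1 0.64 ± 0.60 and Nrn1 0.14 ± 0.45. Against saline males 9 to 12, where 0.594% were called, they had -3.95 ± 0.97 (adjusted p = 0.0771), -1.74 ± 0.54, -1.23 ± 0.40 and -1.29 ± 0.32 (adjusted p = 0.0818). These comparisons share the fentanyl males, and in the one against saline males 9 to 12 exposure and range of library numbers cannot be told apart. In the second, DESeq2 called Nrn1 (-1.30, adjusted p = 0.0114, with 3.09% of all genes). Without saline male replicate 4, edgeR called Slc17a7 there (-4.33, adjusted p = 0.0469, with 0.795% of all genes), and without saline male replicate 3 its value was -0.22 ± 0.35.

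Other genes of pallial neurons were followed as lists. Of 15 further pallial transcription factors, 12 were tested and 4 of these were highest in saline male replicate 3: Lhx2 (18.2 CPM there, 10.3 to 15.2 in the others), Fezf2 of deep-layer neurons (2.81 against 0.403 to 2.03), Bhlhe22 (4.40 against 0.206 to 3.95) and Nr4a2 (7.80 against 0.753 to 4.83). Eomes, the factor of intermediate progenitors, had 0.0839 CPM there and 0 to 0.312 CPM in the others. Of 15 further genes of pallial excitatory neurons, all tested, 5 were highest there, such as the synaptic pentraxin receptor Nptxr (220.0 CPM against 59.5 to 148) and the calcium sensor Vsnl1 (519 against 95.9 to 368). Camk2a, the kinase of excitatory synapses, was not, with 1265 CPM there and 530 to 1698 CPM in the others. In each of these lists 1 gene was lowest there, Tle4 among the factors (58.7 CPM against 59.2 to 157) and Pcp4, a calmodulin-binding protein, among the others (218 against 430 to 1734), and 5 of 12 and 4 of 15 genes lay below the median of the other libraries.

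Families related to the members were followed in the same way. The thalamic and subcortical transporter VGLUT2, Slc17a6, had 14.9 CPM in saline male replicate 3 and 0.167 to 7.55 CPM elsewhere, and was 1 of 6 genes of the transporter list highest there. Of the R-spondin receptors and opposing ligases, 1 of 5 tested, the receptor Lgr6, was highest there (18.3 against 4.39 to 11.5 CPM). Of the MEF2 relatives and the class IIa histone deacetylases that repress them, Hdac4 and Hdac9 were highest there (51.1 and 19.6 CPM, against 27.2 to 48.8 and 5.69 to 10.9 CPM). Of 5 claustrum and endopiriform genes, Nr4a2 and Ntng2 were highest there, and of 4 hippocampal genes tested, none.

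Genes of the labelled tissue were mixed in that library. Of 16 central amygdala genes, 7 were highest in saline male replicate 3, including Prkcd (33.3 CPM against 11.2 to 23.4), the neuropeptide genes Sst (206 against 41.4 to 162) and Nts (29.4 against 3.06 to 16.8), and Cyp26b1, which degrades retinoic acid (58.2 against 1.10 to 24.9). Another 5 of the 16, Pdyn, Isl1, Meis2, Six3 and Tshz1, lay below the median of the other 15 libraries, such as the opioid peptide precursor Pdyn (167 CPM against a median of 257) and the homeobox factor Meis2 (221 against 262). Of 17 striatal genes none was highest and 9 were lowest there. Drd2, the dopamine receptor of indirect-pathway neurons, had 53.7 CPM there against 75.4 to 406 CPM in the others. For this list and those above, the share of all genes lowest there was not computed. By mean log2 CPM, saline male replicate 3 ranked 1 for the central amygdala list, 15 for the striatal list, 13 for myelin and 16 for endothelial cells. It also ranked 1 for the members, the pallial transcription factors and the list of MEF2 relatives and histone deacetylases. A list of thalamic and hypothalamic neuron genes ranked 1 there too (2.37 against 0.839 to 2.28). The library ranked 2 for the pallial excitatory neuron, transporter and claustrum lists, and 4 to 11 for the remaining lists. What these values have to do with the level of the 8 genes was not tested.

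**Figure D4:**
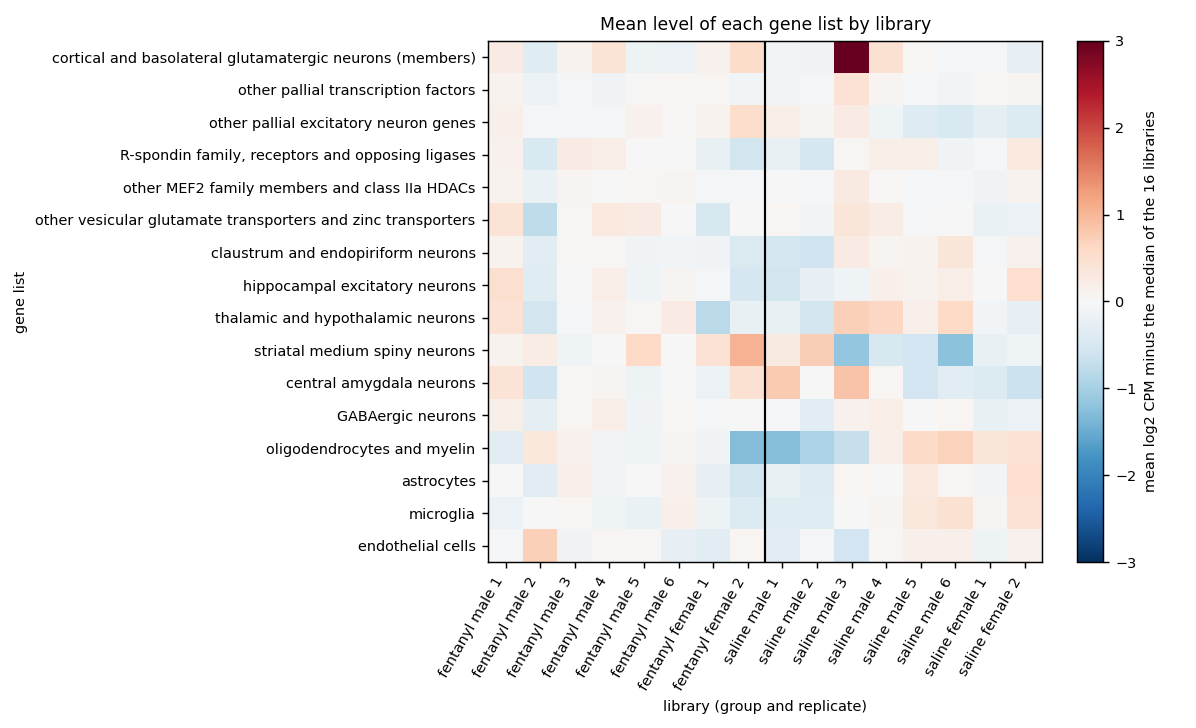
Mean log2 CPM of each gene list in each library, minus the median of the 16 libraries (red above, blue below); fentanyl libraries are left of the black line and saline libraries right of it. Each list is averaged over its tested genes. The darkest cell is the 6 tested members in saline male replicate 3, with a mean of 4.24 against 0.879 to 1.81 in the others. The same column is red for central amygdala genes and blue for striatal genes.

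For exposure over both sexes, none of the further lists had a gene past the threshold. The medians of log2 fold change were 0.04 for the pallial transcription factors (6 above and 6 below 0), 0.24 for the excitatory neuron genes (12 above, 3 below), -0.08 for the R-spondin group, -0.05 for the MEF2 group, -0.04 for the transporters, -0.06 for claustrum genes and -0.06 for hippocampal genes, beside -0.01 for all genes. Bhlhe22, a repressor in pallial neurons, had the smallest p of the pallial factors, at -1.70 ± 0.46 (adjusted p = 0.310), and -1.47 without saline male replicate 3. Nptx1, a synaptic pentraxin, had 0.40 ± 0.18 (adjusted p = 0.665), and 0.57 without that library. Between the saline males 1 and 2 and those numbered 9 to 12, by contrast, genes of these lists passed in both directions. Tle4, a corepressor of deep-layer neurons, was higher in saline males 1 and 2 by 1.15 ± 0.18 (adjusted p = 0.00151 by edgeR) and Hpca, a calcium sensor, by 1.34 ± 0.28 (adjusted p = 0.00712). So were 15 of the 17 striatal genes, the median log2 fold change of the 17 being 1.23. Of all genes tested, 17.9% passed this comparison in either direction. What the striatal genes have to do with Tle4 and Hpca was not tested. Lower in saline males 1 and 2 were Bhlhe22 at -2.42 ± 0.62 (adjusted p = 0.0159), Nr4a2 at -2.17 ± 0.48 (adjusted p = 0.00808) and Slc17a6 at -2.95 ± 0.95 (adjusted p = 0.0435), the last not without saline male replicate 3 (adjusted p = 0.0640).

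The likeness of other genes to Slc17a7 was measured as Pearson's r of log2 CPM over the 16 libraries, as a description. Among 17855 genes, Slc30a3 ranked 1, Tbr1 22, Nrn1 28, Neurod6 32 and Mef2c 10067, and the median r of these 5 members was 0.77. Without saline male replicate 3 that median was 0.09. The 10 most alike genes outside the list were C1ql3, Drc1, Lrfn2, Zfp687, Mfge8, Nptxr, Ptprr, Lgr6, Ccdc33 and Bcl9, with r of 0.813 to 0.872, and all 10 were highest in that library. C1ql3, a secreted synaptic organiser of cortical and amygdalar neurons, had 11.2 CPM there and 0.863 to 2.68 CPM in the others. Over the other 15 libraries the r of the 10 was 0.222 to 0.701, Nptxr and Lgr6 being the closest at 0.701 and 0.699. The 5 most opposite genes, Sytl2, Spatc1l, Zfp758, Anxa4 and Zfp617, had r of -0.846 to -0.778 and were all lowest in that library. The points share their libraries and depths, and 1 library sets the order.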

How the data were processed

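Poly(A) RNA from tissue labelled central amygdala was extracted with Trizol and made into libraries with NEBNext kits, per the labels' protocols. The submitters' processing notes name build rn7 and the tools Trimmomatic, STAR, HTSeq and DESeq2. Versions, annotation and strand setting: not given in the sources used here. Genes that overlap on opposite strands may therefore share reads. The authors deposited whole-number counts per gene, not normalized. Of 33294 genes, 5345 had no count.

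The main tests used edgeR 4.0.16 in R 4.3.3 (TMM, filterByExpr over the 4 groups, minimum 0.603 CPM, 17856 genes, robust quasi-likelihood test, Benjamini-Hochberg threshold 0.05). Males, females and their difference were contrasts of a 4-group fit, and the sets of saline males were contrasts of a 5-group fit. Log2 CPM used a prior count of 2. DESeq2 1.42.0, limma 3.58.1, other scalings, no filter, other terms and leaving out each library were alternatives. The edgeR steps were tested on simulated data. All 120 pairs of libraries differed by more than sampling noise (chi-square per gene at least 3.84).

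The members, lists and comparisons were chosen with earlier results of these data known. All 9 members are named. Of each other list, up to 3 genes with the smallest p over both sexes and those past the threshold in any comparison, up to 6, could be named, and the genes named for being highest or not highest in saline male replicate 3 were chosen after their values were seen. For likeness, the 10 most alike and 5 most opposite genes averaging 1 CPM or more and without a provisional symbol were named. Leaving out saline male replicate 3 together with the filter was added after the data were seen.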

Additional observations from a re-analysis of the deposited data

Results flagged for a closer look

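In groups of 6 males, a gap test took the gap of the extreme library to its neighbour over the range. Its critical value, 0.625, is set to mark about 1 in 20 groups of normally distributed values. The share of all genes that it marks was not computed. It was run on 18 gene and group pairs and marked 10. Of these, 8 were saline male replicate 3: Slc17a7 at 68.1 CPM (others 0.985 to 1.75), Neurod2 at 3.02 (0.0544 to 0.137), Neurod6 at 4.40 (0.137 to 0.936), Tbr1 at 7.38 (0.811 to 2.56), Emx1 at 0.545 (0 to 0.0624), Rspo2 at 1.80 (0.174 to 0.480), Slc30a3 at 9.86 (0.0575 to 0.755) and Nrn1 at 12.6 CPM (2.27 to 5.06). In fentanyl males, Emx1 in replicate 5 stood at 0.235 CPM on 3 reads (others 0 to 0.0687), and Nrn1 in replicate 1 at 3.23 CPM (others 2.23 to 2.60). Mef2c had no such library in either group. The 8 marks in saline male replicate 3 are on the genes already described as highest there, so they are not separate evidence.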

How the results depend on the processing

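Of 795 member values under alternatives, 738 kept their direction and side of the threshold, 32 turned sign, 17 lost a call and 8 gained one. The 738 were counted whatever their size. Slc17a7 in males, for example, ran from -3.70 to -0.08 with 1 library left out, all counted as kept. Every call lost was Neurod6, Tbr1 or Nrn1 between the sets of saline males. Counts of genes called moved as follows, and the cause was not tested. Over both sexes (14) they were 87 with DESeq2, 1031 with limma voom, 2 with a replicate block, 1226 without saline males 1 and 2, 4 without saline males 9 to 12 and 9 to 29 with 1 library left out. In males (7) they were 43, 87 and 3 with DESeq2, limma voom and the replicate block, 4 with no filter and saline male replicate 3 left out, and 4 to 9 with 1 library left out. In females (0) they were 20 with DESeq2, 65 in a fit of the females alone, 1 with no filter and saline male replicate 3 left out, and 0 to 1. For the difference between sexes (0) there were 4 with DESeq2 and 0 to 5. Between the sets of saline males (3201) they were 5730 with limma voom and 193 to 4049. Fentanyl males against saline males 1 and 2 (517) gave 1473 with DESeq2, 2836 with limma voom, 1020 with no filter and saline male replicate 3 left out, and 21 to 703. Against saline males 9 to 12 (106) they gave 551, 883 and 7 to 240. The median likeness to Slc17a7 was 0.0938 to 0.81 with 1 library left out and 0.45 by Spearman's rho.

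Signs turned over both sexes without saline males 9 to 12 for Slc17a7 (0.72), Neurod6 (0.20), Tbr1 (0.44) and Slc30a3 (0.18), and with no filter and saline male replicate 3 left out for Slc17a7 (0.36) and Slc30a3 (0.46). That setting also turned Slc17a7 (0.46), Tbr1 (0.11) and Slc30a3 (0.62) in females against males, Neurod6 (-0.98) in the difference between the sexes, and Slc30a3 between the saline sets (1.74) and for fentanyl males against saline males 9 to 12 (0.58). limma voom turned Neurod6 (-0.33) and Mef2c (-0.0032) in the difference and Slc30a3 (0.95) between the saline sets. With 1 library left out, the ranges of values that turned were -2.85 to 0.36 (Slc17a7) and -2.48 to 0.47 (Slc30a3) over both sexes; -1.95 to 0.45 (Slc17a7), -0.36 to 0.11 (Tbr1) and -2.58 to 0.63 (Slc30a3) between the sexes; -0.0114 to 0.45 (Tbr1) and -0.74 to 0.50 (Nrn1) in females; -0.997 to 0.67 (Neurod6) and -0.35 to 0.45 (Mef2c) for the difference; -2.55 to 1.73 (Slc30a3) between the saline sets; and -0.10 to 0.31 (Slc17a7) and -3.72 to 0.58 (Slc30a3) for fentanyl males against saline males 1 and 2 and against 9 to 12.

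Libraries of the same sex with the same replicate number in their titles, of which only the males 1 and 2 also share a library number, correlated at -0.172 to 0.209, above 0.1 in 2 of 8 pairs, and 1 library matched its own number best, so the numbers were not taken as pairs. The block called no member: Mef2c had 0.49 over both sexes (adjusted p = 0.326 by edgeR). Depth limits Emx1, Neurod2 and Rspo2, which had at most 10 reads in any library but saline male replicate 3.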
